A study of Homo sapiens with 12 samples.

Results

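Genes of the interferon response and of innate sensing were followed through 3 kinds of MCF-10A culture, a human mammary epithelial line that does not form tumours. The set held 58 genes, chosen by gene symbol. Of these, 56 had a named probe set on the array, among 17687 named genes in all; STAT2 and TRIM25 were not analysed here. The co-cultures mixed 2 isogenic lines and were harvested at about 75% cells with HER2 L755S, a change in the receptor kinase HER2, the remainder carrying PIK3CA E545K, a change in the catalytic subunit of PI3K. The HER2-mutant and the PIK3CA-mutant line were also grown alone, and each of the 3 groups had 4 arrays. All cultures received EGF at a physiologic level and no further treatment, and they were harvested after 7 to 14 days. The labels name 1 line for each mutation, no culture without a mutation was analysed, and the harvest day of an array was not given. A difference between the lines thus cannot be told apart from a difference between those lines in other respects or in harvest day, and p-values measure the spread between these cultures only. Values are log2 signals of probe sets, so 1 unit stands for a doubling of signal.

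Interferons are secreted proteins that alarm cells to infection. The type I interferons bind the receptor pair IFNAR1 and IFNAR2, and interferon gamma binds IFNGR1 and IFNGR2. Kinases of the JAK family on these receptors activate STAT proteins, which bind DNA alone at GAS elements or together with IRF9 at interferon-stimulated response elements (ISRE). Viral RNA is sensed by RIGI and IFIH1 through the adaptor MAVS, and stray DNA by CGAS through STING1, and both routes lead to IRF factors and new interferon. The induced genes encode antiviral effectors, such as the MX, OAS and IFIT proteins, as well as the GBP GTPases, the IFITM membrane proteins and the ubiquitin-like protein ISG15.

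The control regions shown are those of several members in which such an element was found by its letters. Whether these elements act in these cultures was not tested. The 250 bases before each annotated start were searched in RefSeq promoters (GRCh38.p14) on both strands, with overlaps allowed, for an ISRE core (GAAA, any 2 bases, then GAAA) and for a GAS element (TTCNNNGAA). GBP1, IFIH1, SAMD9, PARP14 and IRF1 had more signal in the HER2-mutant line than in the PIK3CA-mutant line, OAS3 had less, and ISG15 and IFIT1 were above background in no group. Each stretch runs 5′ to 3′ on the strand of its gene, with ISRE cores and GAS elements in capitals.
GBP1 on the minus strand at chr1:89065311-89065350
GBP1: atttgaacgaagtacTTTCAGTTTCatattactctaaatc
IFIH1 on the minus strand at chr2:162318685-162318858
IFIH1: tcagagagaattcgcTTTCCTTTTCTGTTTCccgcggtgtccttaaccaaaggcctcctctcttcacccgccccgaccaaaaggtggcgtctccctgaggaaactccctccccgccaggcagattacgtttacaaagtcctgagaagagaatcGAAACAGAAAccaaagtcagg
SAMD9 on the minus strand at chr7:93118091-93118130
SAMD9: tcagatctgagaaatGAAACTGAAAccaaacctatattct
PARP14 on the plus strand at chr3:122680784-122680834
PARP14: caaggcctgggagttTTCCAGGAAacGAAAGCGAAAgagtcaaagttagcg
IRF1 on the minus strand at chr5:132490874-132490912
IRF1: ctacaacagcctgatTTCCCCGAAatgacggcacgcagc
OAS3 on the plus strand at chr12:112938316-112938473
OAS3: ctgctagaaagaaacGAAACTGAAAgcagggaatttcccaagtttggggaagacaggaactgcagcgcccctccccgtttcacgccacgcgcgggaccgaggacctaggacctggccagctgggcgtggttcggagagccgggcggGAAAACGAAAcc
ISG15 on the plus strand at chr1:1013369-1013414
ISG15: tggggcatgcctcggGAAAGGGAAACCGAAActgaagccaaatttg
IFIT1 on the plus strand at chr10:89392492-89392544
IFIT1: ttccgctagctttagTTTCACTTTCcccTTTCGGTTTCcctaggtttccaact
The ISRE core of GBP1 stood 117 bases before the start, that of SAMD9 126 bases and that of PARP14 19 bases, and the GAS element of IRF1 stood 115 bases before it. Neither motif was found in the window of SAMD9L. The same held for DTX3L, JAK1, JAK2, IFNGR1, STAT3, SP100, MAVS and IFI16, which were also called higher in the HER2-mutant line. GBP2, STING1 and IFITM2 had no entry in the table used. Of 44 members with a promoter sequence, tested or not, 21 held an ISRE core and 12 a GAS element. The shares were 3.71% and 8.09% of all 27305 genes with a promoter, and 3.41% and 7.44% of the 10464 tested ones. The members were chosen as genes of the interferon response, so this comparison is no test of these data. An ISRE core stood in 10 of 21 members that were higher in the HER2-mutant line, in 2 of 4 that were lower there and in 11 of 13 that were above background in no group. These sets overlap, since IFIT3, ISG20 and IFI44 are in the first and the last, and IRF5 in the second and the last. A match describes the letters only, and a gene with several annotated starts had several windows searched.

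Many hallmark interferon-induced genes gave no signal above background in any culture. The receptors, the kinase JAK1, the sensors other than RIGI and a subset of effectors were above background in all 3 groups. The kinase JAK2 and the sensor RIGI were above background in some groups only. A gene counted as above background in a group if it passed the 95th percentile of the negative control probe sets on at least 3 of the 4 arrays. By that limit 37 of the 56 measured members were above background in at least 1 group, and 31 in all 3. The corresponding share was 66.1% of the members and 51.6% of all named genes. The 19 members above background in no group had group means between 2.49 and 6.99. They were the transcription factor genes IRF3, IRF5 and IRF7, the antiviral effectors OAS2, OASL, MX1, MX2, RSAD2, IFIT1, IFIT2, IFIT3, ISG20 and BST2, the modifier ISG15, and IFI27, IFI44, IFI44L, XAF1 and EPSTI1. ISG15 had 4.96, 5.00, 4.87 and 4.84 in the co-cultures, 5.19, 5.08, 5.06 and 5.03 in the HER2-mutant cultures and 4.95, 5.06, 5.12 and 4.90 in the PIK3CA-mutant cultures. MX1, a GTPase that blocks viral nucleocapsids, had 5.06, 5.02, 4.92 and 5.00 in the co-cultures, 4.81, 4.79, 4.87 and 5.09 in the HER2-mutant cultures and 4.80, 4.87, 4.82 and 4.89 in the PIK3CA-mutant cultures. Both stayed below the limit on all 12 arrays. The limit itself was 6.37 to 6.66 on the arrays of the co-cultures, 6.73 to 7.12 on those of the HER2-mutant line and 6.32 to 6.39 on those of the PIK3CA-mutant line. It thus moved with the groups, and its part in differences of dim genes was not tested. A member whose signal is below the limit may still be expressed at a level the array does not resolve.

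**Figure D1:**
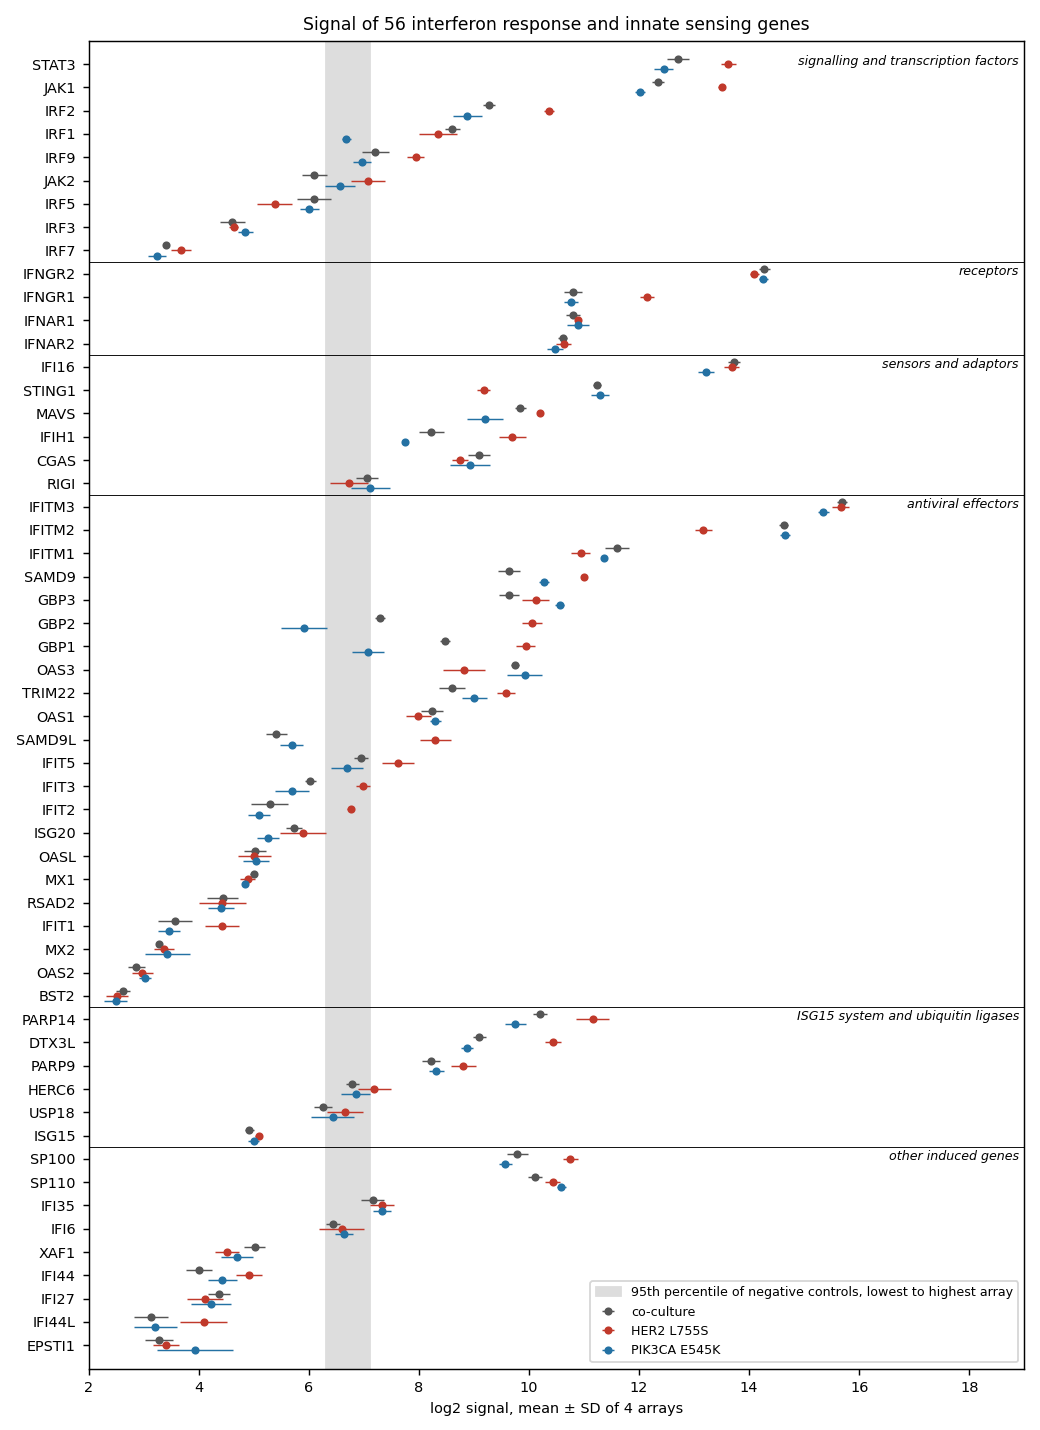
Mean log2 signal ± SD (4 arrays per group, horizontal axis) of the 56 measured members, grouped by role and sorted by their highest mean, for the co-culture (grey), the HER2-mutant line (red) and the PIK3CA-mutant line (blue). The shaded band spans the background limit of the 12 arrays, 6.32 to 7.12, and 19 members, among them MX1, ISG15, BST2 and IFI27, passed it in no group.

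No interferon gene itself was above background. Of 21 listed ligands, 20 had a named probe set, and 0 of them were above background in any group. IFNB1, the interferon beta gene, averaged 3.55 in the co-culture, 3.60 in the HER2-mutant line and 3.36 in the PIK3CA-mutant line, and IFNG averaged 3.00, 3.16 and 3.30 in the same groups. All 5 measured breast epithelial markers, KRT5, KRT14, ITGA6, CDH1 and EPCAM, were above background in every group, and 4 of 5 luminal ones. CDH1 and EPCAM are not particular to basal cells, so this list does not describe a basal state. The lines differed in these markers as well. The HER2-mutant line had 2 of the breast epithelial list called higher and 2 lower, and 3 luminal markers higher and 1 lower. KRT5 averaged 17.13 in the co-culture, 17.33 in the HER2-mutant line and 17.44 in the PIK3CA-mutant line and was not called between the lines. ITGA6 differed by -2.36, EPCAM by -2.02, CDH1 by 0.72 and KRT14 by 0.60 between them, and of the luminal markers KRT8 by 2.32, KRT18 by -2.32, KRT19 by 1.25 and GATA3 by 0.93. The leukocyte marker PTPRC was above background in no group, and neither was any of 4 endothelial markers. Of 6 measured leukocyte markers 3 were above background in the co-culture, 0 in the HER2-mutant line and 3 in the PIK3CA-mutant line, with CD14 averaging 7.78, 5.39 and 7.51. The summed leukocyte signal was 9.05 to 9.30, 8.13 to 8.36 and 8.91 to 9.18 in these groups. Of 6 measured fibroblast markers 2 were above background in the co-culture, 2 in the HER2-mutant line and 3 in the PIK3CA-mutant line. DCN averaged 8.03, 10.70 and 7.07 and COL1A2 8.68, 8.58 and 8.44 in these groups. The summed signal of all 6 measured fibroblast markers was 9.59 to 9.78, 10.94 to 11.30 and 8.95 to 9.44. COL1A1 was above background in the PIK3CA-mutant line alone, and PDGFRA, PDGFRB and LUM were above background in no group. The part of these genes in the results was not tested.

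Comparing the single cultures asked how the HER2-mutant line differed from the PIK3CA-mutant line in this pathway. The HER2-mutant line carried more signal for the guanylate-binding proteins GBP1 and GBP2, the antiviral factor SAMD9L, the RNA sensor IFIH1, the kinase JAK1, the receptor chain IFNGR1 and the factors IRF1, IRF2 and STAT3. It carried less for the DNA-sensing adaptor STING1, the membrane protein IFITM2 and the oligoadenylate synthetase OAS3. The arrays were fitted with limma over 12758 genes, and a gene was called at a Benjamini-Hochberg adjusted p under 0.05. Of the 49 members that passed the filter on dim signals, the HER2-mutant line had 25 higher and 6 lower, beside 30% and 29.5% of all tested genes, so that 31 were called where 59.5% of all tested genes were. Their median difference was 0.34 on the log2 scale, and that of all tested genes 0.05. Differences of at least 1 were called for 15 members upward and 3 downward, beside 9.01% and 12.3% of all tested genes, or 21.3% together. Counting only the 37 members above background in either line, 21 were higher and 5 lower, a count chosen after seeing the data. The matching share of all genes above background was not computed, so this count is not read against all genes. The arrays of both lines did not overlap for 30 of the 49 members, beside 53% of all tested genes.

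**Figure D2:**
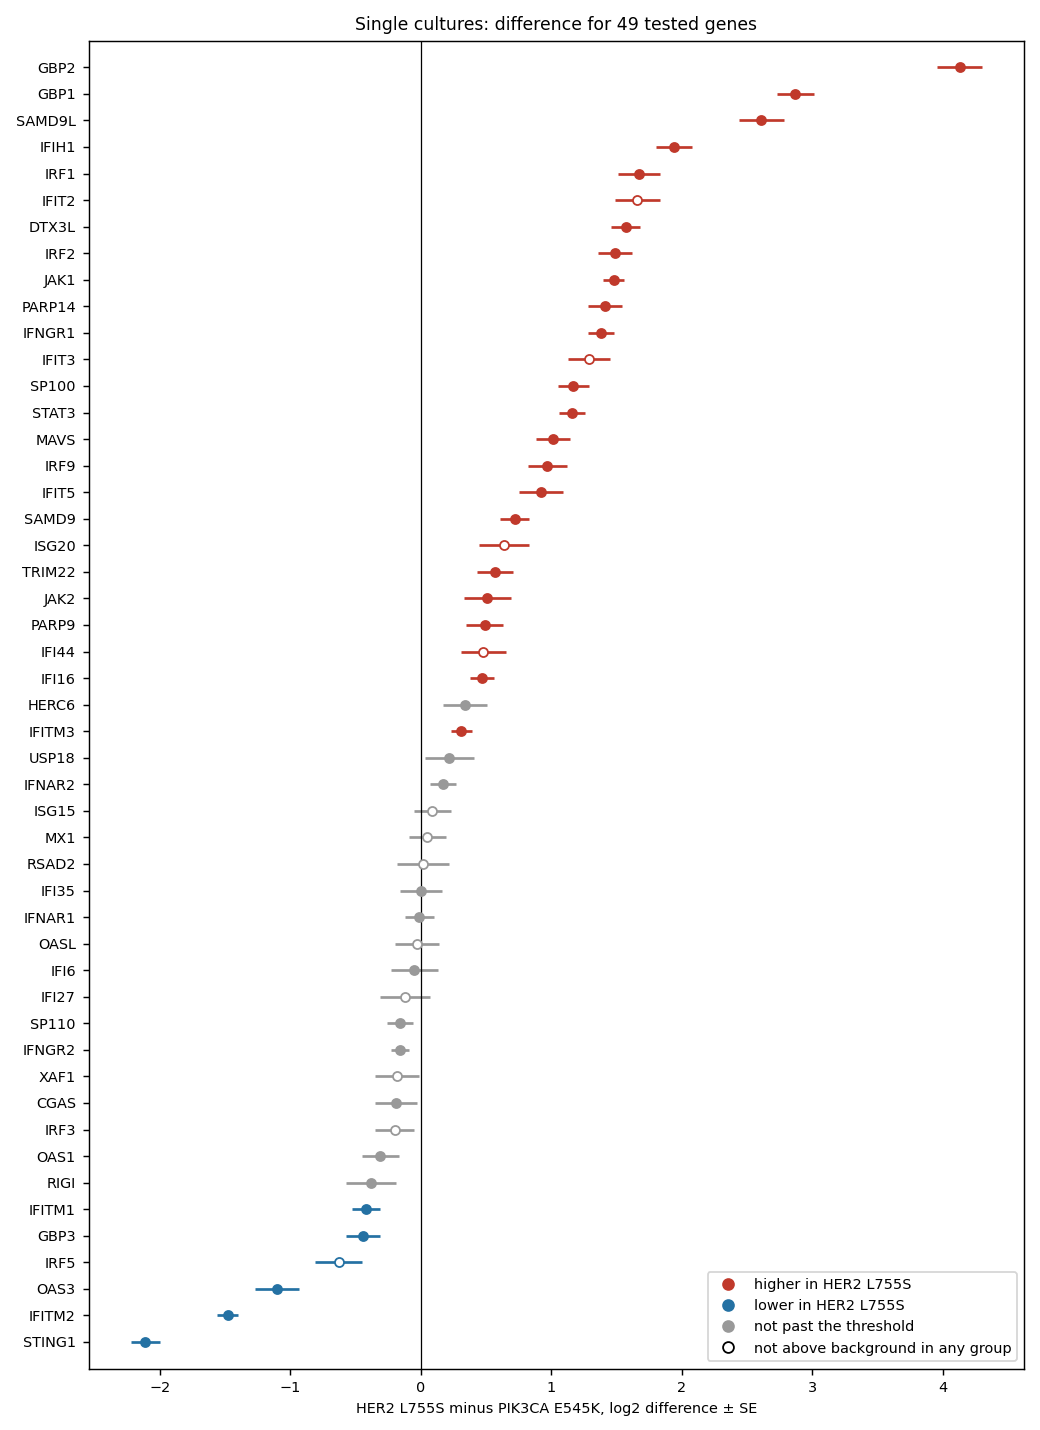
Difference in log2 signal between the HER2-mutant and the PIK3CA-mutant line (horizontal axis, ± SE from limma, 4 arrays each) for the 49 members that passed the filter on dim signals. Red points are called higher and blue points lower in the HER2-mutant line, grey points were not called, and open points were above background in no group; GBP2 stands highest at 4.13 and STING1 lowest at -2.11.

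At the head of the pathway, IFNGR1, the ligand-binding chain of the interferon gamma receptor, had 10.73, 10.89, 10.60 and 10.96 in the co-cultures, 12.05, 12.28, 12.02 and 12.24 in the HER2-mutant cultures and 10.92, 10.67, 10.85 and 10.65 in the PIK3CA-mutant cultures. All HER2-mutant arrays lay above the other 8. IFNGR1 was higher in the HER2-mutant line than in the PIK3CA-mutant line by 1.38 ± 0.10 (SE, limma adjusted p 8.29e-11). Its partner chain IFNGR2 averaged 14.27 ± 0.10 (SD, n = 4) in the co-culture, 14.09 ± 0.08 in the HER2-mutant line and 14.26 ± 0.08 in the PIK3CA-mutant line, with a limma adjusted p of 0.0529 between the lines. It was called between the lines without co-culture replicate 1 (0.0406), HER2-mutant replicate 1 (0.0453) or PIK3CA-mutant replicate 4 (0.0493), with the replicate block (0.033) and with a filter at the 50th percentile (0.0451). It was not called after median centring (0.357) or quantile normalization (0.975), which turned its sign. For the type I receptor, IFNAR1 averaged 10.80, 10.89 and 10.90 and IFNAR2 10.61, 10.63 and 10.47 in these groups, and neither was called in any comparison as fitted. IFNAR2 was called between the lines after median centring or quantile normalization (limma adjusted p 0.0439 after each). A gene that was not called is not thereby shown to be equal.

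JAK1, a kinase that both receptor types use, had 12.32, 12.30, 12.25 and 12.50 in the co-cultures, 13.56, 13.41, 13.56 and 13.49 in the HER2-mutant cultures and 12.11, 11.89, 12.02 and 12.07 in the PIK3CA-mutant cultures. The HER2-mutant arrays stood apart from all others, and JAK1 was higher there than in the PIK3CA-mutant line by 1.48 ± 0.08 (SE, limma adjusted p 2.76e-13). JAK2 lay at the background limit, at 6.10, 7.07 and 6.57 in co-culture, HER2-mutant and PIK3CA-mutant means. Its call between the lines (limma adjusted p 0.0199) was lost without HER2-mutant replicate 1 (0.0521) or 4 (0.068) and without PIK3CA-mutant replicate 4 (0.0908). STAT3, which many cytokines activate, averaged 12.71 ± 0.20 (SD, n = 4) in the co-culture, 13.62 ± 0.14 in the HER2-mutant line and 12.45 ± 0.17 in the PIK3CA-mutant line, a difference of 1.16 between the lines.

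Of the IRF transcription factors, IRF1, itself induced by interferon gamma, had 8.46, 8.80, 8.63 and 8.57 in the co-cultures, 7.86, 8.43, 8.50 and 8.62 in the HER2-mutant cultures and 6.72, 6.66, 6.77 and 6.59 in the PIK3CA-mutant cultures. The co-culture overlapped with the HER2-mutant line, and the PIK3CA-mutant line lay below both. IRF1 was higher in the HER2-mutant than in the PIK3CA-mutant line by 1.67 ± 0.16 (SE, limma adjusted p 2.69e-09). IRF2, which competes with IRF1 for its sites, had 9.34, 9.13, 9.25 and 9.38 in the co-cultures, 10.42, 10.23, 10.42 and 10.40 in the HER2-mutant cultures and 9.12, 8.76, 9.07 and 8.58 in the PIK3CA-mutant cultures. For IRF2 the HER2-mutant arrays were the high ones, by 1.49 over the PIK3CA-mutant line, and the co-culture arrays stood just above those of the PIK3CA-mutant line. IRF9, the DNA-binding partner of the STAT dimer, averaged 7.21, 7.94 and 6.97 in co-culture, HER2-mutant and PIK3CA-mutant cultures and was higher by 0.97 in the HER2-mutant line.

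The sensors were divided. IFIH1, the sensor of long double-stranded RNA also called MDA5, had 8.21, 7.95, 8.26 and 8.48 in the co-cultures, 9.50, 9.53, 9.73 and 10.04 in the HER2-mutant cultures and 7.74, 7.77, 7.69 and 7.82 in the PIK3CA-mutant cultures. It was higher in the HER2-mutant line than in the PIK3CA-mutant line by 1.94 ± 0.14 (SE, limma adjusted p 4.66e-11). STING1, the adaptor at the endoplasmic reticulum that answers to the CGAS product, had 11.23, 11.30, 11.25 and 11.13 in the co-cultures, 9.37, 9.09, 9.12 and 9.16 in the HER2-mutant cultures and 11.23, 11.38, 11.08 and 11.47 in the PIK3CA-mutant cultures. The order was the reverse of that of IFIH1, with the HER2-mutant arrays below all others and a difference of -2.11 ± 0.11 from the PIK3CA-mutant line (SE, limma adjusted p 4.45e-14). MAVS, the mitochondrial adaptor of RIGI and IFIH1, had 9.76, 9.76, 9.90 and 9.95 in the co-cultures, 10.20, 10.28, 10.21 and 10.17 in the HER2-mutant cultures and 9.26, 9.66, 8.95 and 8.95 in the PIK3CA-mutant cultures. It was higher by 1.01 in the HER2-mutant line, and the 3 groups did not overlap. IFI16, a nuclear DNA sensor, had 13.64, 13.72, 13.68 and 13.88 in the co-cultures, 13.71, 13.83, 13.69 and 13.51 in the HER2-mutant cultures and 13.33, 13.30, 13.24 and 13.01 in the PIK3CA-mutant cultures, a difference of 0.47 between the lines. The DNA sensor CGAS averaged 9.10, 8.75 and 8.93, and RIGI, the sensor of short RNA ends, 7.06, 6.73 and 7.12 in co-culture, HER2-mutant and PIK3CA-mutant cultures. Neither was called between the lines (limma adjusted p 0.327 and 0.0915), though RIGI was called without HER2-mutant replicate 3 (0.0414) or PIK3CA-mutant replicate 3 (0.0171). In the HER2-mutant line RIGI passed the background limit on 1 of 4 arrays, so the size of its difference is not resolved.

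**Figure D3:**
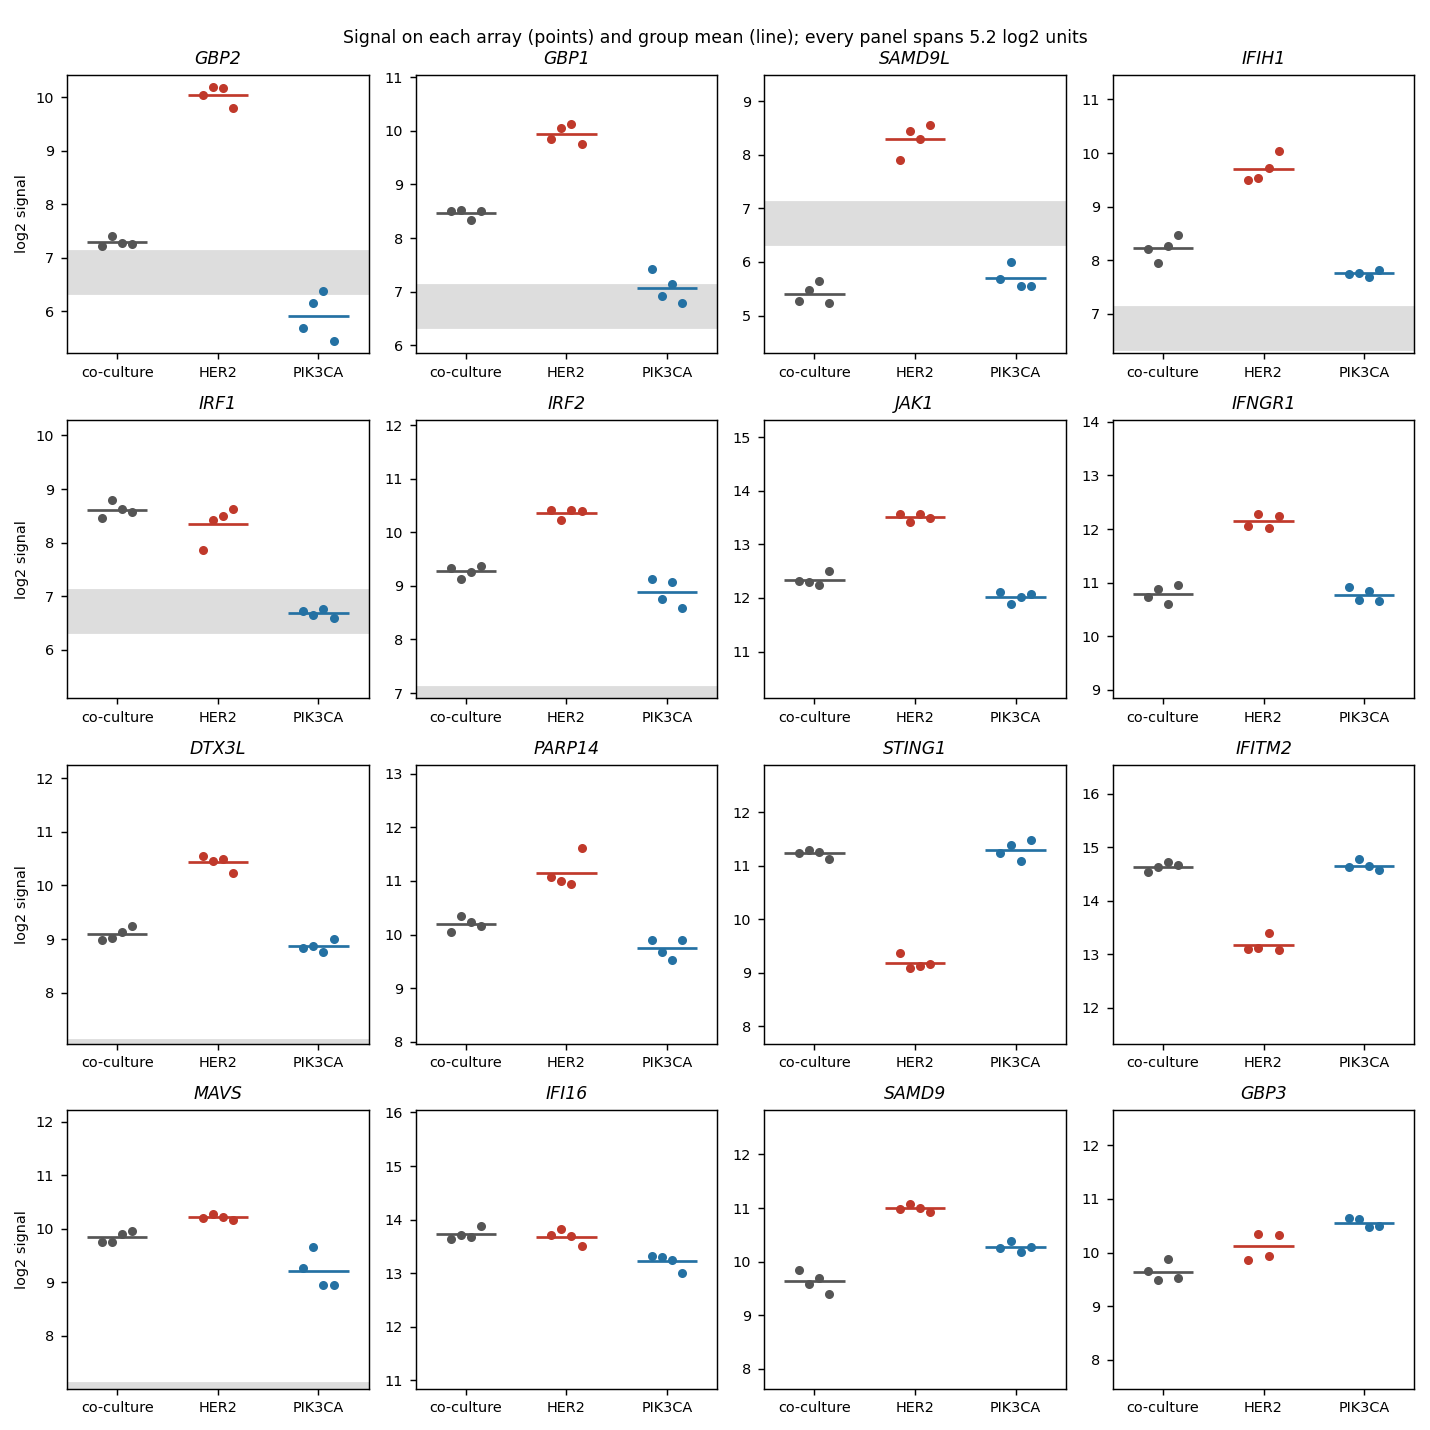
Log2 signal on each of the 12 arrays (points, vertical axis) and group mean (line) for 16 members, with co-culture, HER2-mutant and PIK3CA-mutant cultures from left to right and an equal axis length in each panel; the shaded band is the background limit. In the panels of JAK1, IFNGR1, IFIH1 and DTX3L the HER2-mutant arrays stand above the rest, in those of STING1 and IFITM2 below, and in that of IRF1 the PIK3CA-mutant arrays stand alone.

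The guanylate-binding proteins, GTPases that attack the membranes around intracellular pathogens, held the largest difference of the set. GBP2 had 7.22, 7.41, 7.27 and 7.25 in the co-cultures, 10.04, 10.19, 10.16 and 9.80 in the HER2-mutant cultures and 5.70, 6.16, 6.38 and 5.45 in the PIK3CA-mutant cultures. The 3 groups did not overlap, and the PIK3CA-mutant line was not above background for GBP2. The measured difference between the lines was 4.13 ± 0.17 (SE, limma adjusted p 1.62e-15), and against the background limit GBP2 was at least 12.8-fold higher in the HER2-mutant line. GBP1 had 8.50, 8.53, 8.34 and 8.51 in the co-cultures, 9.84, 10.05, 10.12 and 9.76 in the HER2-mutant cultures and 7.43, 6.91, 7.15 and 6.78 in the PIK3CA-mutant cultures, in the same order. GBP1 was higher by 2.87 ± 0.14 in the HER2-mutant line (SE, limma adjusted p 4.78e-14). GBP3 went the other way, with 9.66, 9.48, 9.88 and 9.53 in the co-cultures, 9.86, 10.35, 9.94 and 10.32 in the HER2-mutant cultures and 10.64, 10.62, 10.48 and 10.50 in the PIK3CA-mutant cultures, a difference of -0.44. The GBP genes resemble each other in sequence, so which of them a probe set reads is uncertain, and the same holds for the IFITM and OAS families.

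SAMD9L and SAMD9 are related cytoplasmic factors that restrict poxviruses. SAMD9L had 5.28, 5.48, 5.64 and 5.24 in the co-cultures, 7.91, 8.45, 8.29 and 8.55 in the HER2-mutant cultures and 5.68, 5.99, 5.55 and 5.55 in the PIK3CA-mutant cultures. Only the HER2-mutant line was above background, and its signal was at least 3.84-fold that of the PIK3CA-mutant line (measured difference 2.61 ± 0.17, SE, limma adjusted p 5.15e-12). SAMD9 had 9.85, 9.59, 9.70 and 9.39 in the co-cultures, 10.99, 11.07, 11.01 and 10.93 in the HER2-mutant cultures and 10.25, 10.39, 10.19 and 10.27 in the PIK3CA-mutant cultures. Its co-culture arrays lay below those of both lines, and between the lines it differed by 0.72. TRIM22, an antiviral ubiquitin ligase, averaged 8.60, 9.58 and 9.01 in co-culture, HER2-mutant and PIK3CA-mutant cultures.

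The IFITM proteins block viral fusion at the membrane. IFITM2 had 14.53, 14.63, 14.72 and 14.66 in the co-cultures, 13.10, 13.11, 13.39 and 13.09 in the HER2-mutant cultures and 14.62, 14.78, 14.64 and 14.57 in the PIK3CA-mutant cultures. The HER2-mutant arrays lay below all others, by -1.48 ± 0.08 relative to the PIK3CA-mutant line (SE, limma adjusted p 1.16e-13). IFITM3 averaged 15.68, 15.66 and 15.35 in co-culture, HER2-mutant and PIK3CA-mutant cultures and was higher by 0.31 in the HER2-mutant line, and IFITM1 averaged 11.60, 10.94 and 11.36 and differed by -0.42. Among the enzymes that make oligoadenylates for RNase L, OAS3 averaged 9.75 ± 0.07 (SD, n = 4) in the co-culture, 8.82 ± 0.38 in the HER2-mutant line and 9.92 ± 0.32 in the PIK3CA-mutant line and differed by -1.10 between the lines. OAS1 averaged 8.24, 7.99 and 8.30 in these groups and was not called between the lines (limma adjusted p 0.0669), but it was called without HER2-mutant replicate 1 (0.047) or 4 (0.0351).

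In the IFIT family, which binds foreign RNA ends, only IFIT5 was above background, averaging 6.95, 7.62 and 6.70 in co-culture, HER2-mutant and PIK3CA-mutant cultures, with a difference of 0.92 between the lines. IFIT2 had 5.08, 5.18, 5.79 and 5.13 in the co-cultures, 6.68, 6.79, 6.83 and 6.74 in the HER2-mutant cultures and 4.85, 5.15, 5.33 and 5.07 in the PIK3CA-mutant cultures. IFIT3 had 6.12, 6.02, 5.90 and 6.09 in the co-cultures, 6.88, 6.88, 7.10 and 7.11 in the HER2-mutant cultures and 5.94, 5.88, 5.26 and 5.72 in the PIK3CA-mutant cultures. The HER2-mutant arrays were the high ones for both, and both were called (limma adjusted p 1.23e-08 and 3.54e-07), yet the signals lay at or under the background limit, so no fold is given. ISG20 and IFI44 were called higher and IRF5 lower in the HER2-mutant line from signals below the limit as well.

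Among the partners of ubiquitin-like modification, DTX3L, a ubiquitin ligase that works as a complex with PARP9, had 8.99, 9.02, 9.14 and 9.25 in the co-cultures, 10.55, 10.46, 10.50 and 10.24 in the HER2-mutant cultures and 8.83, 8.88, 8.75 and 9.00 in the PIK3CA-mutant cultures. Between the lines DTX3L differed by 1.57 ± 0.11 (SE, limma adjusted p 4.14e-11). PARP14, a mono-ADP-ribosyltransferase, had 10.04, 10.35, 10.23 and 10.16 in the co-cultures, 11.07, 10.99, 10.95 and 11.61 in the HER2-mutant cultures and 9.90, 9.67, 9.52 and 9.90 in the PIK3CA-mutant cultures, a difference of 1.41. PARP9 differed by 0.49 only, and USP18, the protease that removes ISG15, and the ligase HERC6 were not called in any comparison as fitted. HERC6 was called between the lines after median centring (limma adjusted p 0.0345) or quantile normalization (0.0346). For the co-culture against the HER2-mutant line it was called after median centring (0.0219) or quantile normalization (0.0204) and without HER2-mutant replicate 3 (0.0393) or 4 (0.045) or PIK3CA-mutant replicate 3 (0.0479). For the same pair USP18 was called after median centring (0.0406) or quantile normalization (0.0432) and without HER2-mutant replicate 1 (0.0488). As deposited, USP18 averaged 6.26 in the co-culture and 6.66 in the HER2-mutant line. Neither group was above background for it, so these calls rest on signals under the limit. Against the blend HERC6 was called after quantile normalization (0.0493). Of the nuclear body proteins, SP100 averaged 9.79, 10.75 and 9.57 in co-culture, HER2-mutant and PIK3CA-mutant cultures, a difference of 1.17 between the lines. SP110 had 10.04, 9.98, 10.17 and 10.23 in the co-cultures, 10.55, 10.55, 10.34 and 10.27 in the HER2-mutant cultures and 10.58, 10.48, 10.63 and 10.67 in the PIK3CA-mutant cultures, without a call between the lines.

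Setting the co-culture against the HER2-mutant line asked how far the mixed culture kept the levels of the line that supplied most of its cells. It carried less GBP1, GBP2, SAMD9L, IFIH1, JAK1 and IFNGR1 and more STING1, IFITM2 and OAS3. Of the 49 members, the co-culture had 7 higher and 23 lower, beside 24.9% and 26% of all tested genes, so that 30 were called where 51% of all tested genes were. Their median difference was -0.32, and that of all tested genes -0.05. At a size of at least 1, 2 members were higher and 10 lower, beside 8.59% and 5.4% of all tested genes, or 14% together. Among the 34 members above background in either group, 5 were higher and 19 lower, a count chosen after seeing the data and without a matching share of all genes. The arrays did not overlap for 30 members, beside 44.4% of all tested genes. SAMD9L differed by -2.89 ± 0.17 (SE, limma adjusted p 1.41e-12), and against the background limit its signal was at least 3.42-fold lower in the co-culture. GBP2 differed by -2.76, GBP1 by -1.47, IFIH1 by -1.47, SAMD9 by -1.37 and IFNGR1 by -1.35. STING1 was higher in the co-culture by 2.04 ± 0.11 (SE, limma adjusted p 1.46e-13) and IFITM2 by 1.46. IRF1, IFI16 and IFITM3 were not called (limma adjusted p 0.178, 0.7 and 0.859), and MAVS differed by -0.37 (0.0236). That call of MAVS was lost without co-culture replicate 1 (0.0581) or 2 (0.0615) and without HER2-mutant replicate 2 (0.0526).

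Setting the co-culture against the PIK3CA-mutant line gave fewer calls. This comparison shares the co-culture arrays with the one before, so both are described side by side and not as independent results. IRF1, GBP1 and GBP2 were higher in the co-culture, as were the sensing genes MAVS and IFI16, while GBP3, SAMD9 and SP110 were lower. Of the 49 members, 10 were higher and 4 lower, beside 11.1% and 14.6% of all tested genes, or 25.7% together, and the 14 called were above background in at least one of these groups. Their median difference was 0.08, and that of all tested genes -0.02. A difference of at least 1 was called upward for 3 members and downward for 0, beside 1.48% and 1.95% of all tested genes, or 3.43% together. The arrays did not overlap for 16 members, beside 28.3% of all tested genes. IRF1 was higher by 1.93 ± 0.16 (SE, limma adjusted p 4.55e-09), GBP1 by 1.40 and GBP2 by 1.37, which for GBP2 is at least 1.89-fold against the background limit. MAVS was higher by 0.64, IFI16 by 0.51, IFITM3 by 0.33 and JAK1 by 0.32. GBP3 differed by -0.92 ± 0.13 (SE, limma adjusted p 7.48e-06), SAMD9 by -0.65 and SP110 by -0.48. SAMD9L, IFNGR1, STING1, IFITM2 and OAS3 were not called here (limma adjusted p 0.252, 0.902, 0.73, 0.911 and 0.528).

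Another 4 calls of that comparison were lost when single arrays were left out, though the arrays of both groups did not overlap for these genes. IRF2 was higher by 0.40 (limma adjusted p 0.0232), a call lost without co-culture replicate 1 (0.0545) or 4 (0.0671) and without PIK3CA-mutant replicate 2 (0.0678) or 4 (0.108). IFIH1 was higher by 0.47 (0.0166), lost without co-culture replicate 4 (0.0699), and PARP14 by 0.45 (0.0153), lost without co-culture replicate 2 (0.0567) or PIK3CA-mutant replicate 3 (0.0652). TRIM22 differed by -0.41 (0.0355), lost without co-culture replicate 3 (0.156) and without PIK3CA-mutant replicate 1 (0.145) or 2 (0.0785).

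The labelled share of cells allows a further comparison, of the co-culture with the level given by 75% HER2-mutant and 25% PIK3CA-mutant signal on the linear scale. GBP2, SAMD9L, SAMD9 and IFIH1 lay below that blend, and STING1 and IFITM2 lay above it. In the limma fit 7 members were higher and 22 lower than the blend, beside 18.5% and 22.3% of all tested genes, or 40.8% together. A difference of at least 1 was called upward for 1 member and downward for 8, beside 2.8% and 3.24% of all tested genes, or 6.04% together. Their median difference was -0.18, and that of all tested genes -0.05. Among the 37 members above background in at least one group, 5 were higher and 19 lower, a count chosen after seeing the data. Here too no matching share of all genes above background was computed. GBP2 averaged 7.29 in the co-culture against a blend of 9.66, a difference of -2.37 ± 0.17 (SE, limma adjusted p 2.12e-10). SAMD9L was called lower than its blend of 7.96 (limma adjusted p 3.6e-11), but the co-culture was above background for it on 0 of 4 arrays, so no exact size is given. SAMD9 differed by -1.22, IFIT2 by -1.20 from signals at or below background, IFIH1 by -1.18, GBP1 by -1.12 and IFNGR1 by -1.11. STING1 lay above the blend by 1.17 ± 0.09 (SE, limma adjusted p 8.38e-10) and IFITM2 by 0.93. IRF1 lay above it by 0.53 (limma adjusted p 0.00642), a call lost where the HER2-mutant share was set to 90% (0.0571). Fewer cells of a line and less RNA per cell cannot be told apart in these bulk samples.

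On the linear scale the place of the co-culture between both lines, with 0% at the PIK3CA-mutant and 100% at the HER2-mutant mean, shows how unlike the members were. It was 1.11% for IFNGR1, 5.68% for STING1, 13.6% for IFIH1, 13.8% for JAK1, 17.5% for IRF2 and 26% for GBP1. MAVS stood at 54.8%. Other members lay outside both lines, with IRF1 at 128% and GBP3 at 179% beyond the HER2-mutant mean. SAMD9 at -55.4%, TRIM22 at -50.5% and IFITM1 at -72.4% lay beyond the PIK3CA-mutant mean. These positions are descriptions of group means. None is given for GBP2 and SAMD9L, whose PIK3CA-mutant mean was not above background.

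**Figure D4:**
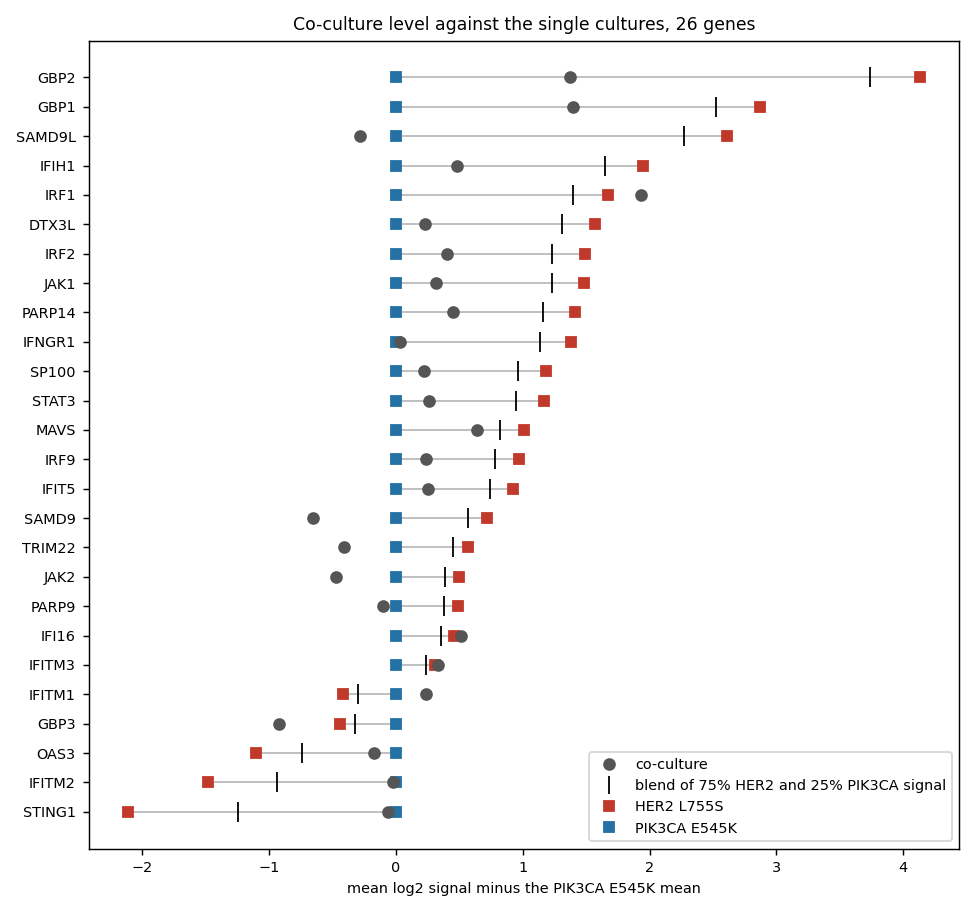
Mean log2 signal minus the PIK3CA-mutant mean (horizontal axis) for the 26 members that were called between the lines and above background in at least 1 group. Grey circles are the co-culture, black bars the blend of 75% HER2-mutant and 25% PIK3CA-mutant signal, red squares the HER2-mutant and blue squares the PIK3CA-mutant line; the circle of SAMD9 lies at -0.65 and that of IRF1 at 1.93. The co-culture was not above background for SAMD9L and JAK2, nor the HER2-mutant line for JAK2, nor the PIK3CA-mutant line for SAMD9L and GBP2. The distances of these genes on this axis are thus not resolved.

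Further genes of the pathway, from lists drawn up beside the members, were compared between the single cultures. Of 7 measured receptor, kinase and STAT genes beyond the members, 5 were higher in the HER2-mutant line and 1 lower. STAT6, which serves interleukin 4, averaged 10.68, 11.95 and 10.37 in co-culture, HER2-mutant and PIK3CA-mutant cultures and was higher by 1.57, and TYK2, the JAK kinase on IFNAR1, by 0.81. Of 16 tested sensors and adaptors, 11 were higher and 2 lower, with TLR5 and NOD2 called higher from signals below background in every group. IKBKE, a kinase that activates IRF factors, was higher by 1.90, TLR3, the endosomal sensor of double-stranded RNA, by 1.53. DDX60, a helicase above background in the HER2-mutant line only, was at least 1.97-fold higher, whereas TLR6 differed by -1.51. Of 33 tested further induced genes, 15 were higher and 11 lower. At a size of at least 1, 10 were higher and 4 lower, beside 9.01% and 12.3% of all tested genes. LY6E, a membrane protein that affects viral entry, differed by -2.41, SLFN5 by -2.20 and WARS1, the tryptophanyl-tRNA synthetase, by -1.99, and CXCL10 was called higher from signals below background. Of 15 tested negative regulators, 5 were higher and 7 lower. The cytokine signalling suppressor SOCS2, not above background in the HER2-mutant line, was at least 6.34-fold lower there. The phosphatase gene PTPN1 differed by -1.29 and NLRX1 by -0.93, whereas PTPN6 was higher by 1.11. The counts called at any size stand beside 30% of all tested genes higher and 29.5% lower.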

How the data were processed

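RNA of 12 cultures, 5 µg each, was labelled with a whole-transcript kit and hybridised to 1 array per culture, per the labels' protocols. The deposited log2 values are signals of probe sets from the authors' run of Transcriptome Analysis Console, a tool named in the submitters' processing notes; version, background correction, summarization and normalization are not given in the sources used here. Array medians were 6.41 to 6.49, and values were used as deposited. Of 24351 probe sets, 17709 carried 1 gene symbol in the platform annotation; none carried several, and the others were left out or, for 612 negative controls, used as background. Where a gene had more than 1 probe set (20 genes) the brightest stood for it, and each measured member had 1. Genes entered the tests when 4 or more arrays put them above the 30th percentile of named genes.

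A linear model of the 3 groups was fitted to all 12 arrays in limma 3.58.1 (R 4.3.3), with moderated variances that follow the mean signal. Tests were two-sided, with Benjamini-Hochberg adjustment over all 12758 tested genes. The blend was tested with delta-method standard errors. Where a group was not above background, the fold is a limit set against the background limit of its arrays. The number of arrays limits the precision. The members and lists were chosen with earlier results of these data known. Values on every array are given for the called members with the largest differences, 14 between the lines, 8 and 6 for the co-culture against the PIK3CA-mutant and the HER2-mutant line and 6 against the blend, and up to 4 genes per further list. Promoters shown beyond GBP1 and IFIH1, and the arrays of MX1 and ISG15, were chosen after their values were seen.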

Additional observations from a re-analysis of the deposited data

Results flagged for a closer look

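Among 147 groups of 4 arrays, those of the 49 tested members, 8 held 1 array far from the other 3, or 5.44%; chance flags about 1 in 20. On co-culture replicate 3, IFNAR2 had 10.48 against 10.64 to 10.65 on the others, TRIM22 8.27 against 8.68 to 8.74, GBP1 8.34 against 8.50 to 8.53 and IFIT2 5.79 against 5.08 to 5.18. XAF1 had 4.73 on co-culture replicate 4, against 5.10 to 5.12. IRF2 had 10.23 on HER2-mutant replicate 2, against 10.40 to 10.42, and IFITM2 13.39 on HER2-mutant replicate 3, against 13.09 to 13.11. OAS3 had 9.44 on PIK3CA-mutant replicate 3, against 10.05 to 10.11.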

How the results depend on the processing

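Of 104 called differences of members over the 4 comparisons, 91 kept their call and direction under every alternative tried other than the tested margin, and 0 reversed. The other 13 lost the call under at least 1 alternative, among them JAK2 and IFI44 between the lines and IFNGR2, MAVS and XAF1 for the co-culture against the HER2-mutant line. When differences were tested for exceeding 0.5 (log2), 20 members were called between the lines, 19 for the co-culture against the HER2-mutant line and 4 against the PIK3CA-mutant line. Of 92 differences that were not called, 29 changed sign under some alternative, none larger than 0.16 as reported, and 16 were called under at least 1. Leaving out each array in turn gave 30 to 32, 28 to 31 and 12 to 15 called members in these comparisons, 27 to 30 against the blend, and 35 to 37 members above background. Same-numbered arrays did not deviate together (correlations -0.034 to 0.06 over 12 pairs, own number best in 5 of 24 cases). With the replicate block, 32, 30, 16 and 29 members were called. The shares of all tested genes called at the margin, with an array left out or with the block are not given here. These counts thus describe only how far the calls of members held, and are not read against all genes. With the 99th percentile of the negative controls 25 members were above background, with the 90th 41. Background correction could not be varied, since only processed signals were used, and dim signals limit what can be said of 19 members.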
